A study of Mus musculus with 32 samples.

Results

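The mRNAs of 9 ligands and receptors through which a macrophage stimulates or restrains T cells were followed in bone marrow-derived macrophages (BMDMs) that lost Trex1 in culture. They are Cd274, Pdcd1lg2, Cd80, Cd86, Cd40, Tnfsf9, Icosl, Vsir and Lgals9, 9 of the 54281 genes in the count table. Each was found by its Ensembl identifier, and each has 1 row. The genes were picked on their known role, but with the results of the 4-OHT comparison between genotypes already known. Values of that comparison, and of the 4-OHT comparison within FL/FL cells that shares its libraries, are therefore given as a description, in which a call only marks the side of the threshold, no p is printed and no call is read as evidence.

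BMDMs are macrophages grown from mouse bone marrow, here in medium with L929 supernatant. All cultures carried R26 CreERT2, a Cre recombinase that is present in every cell type and stays inactive until 4-hydroxytamoxifen (4-OHT) binds it, and at least 1 loxP-flanked Trex1 allele. Cultures were Trex1 FL/FL, in which both alleles can be deleted, or Trex1 WT/FL, which keep a wild type allele and were the controls. Cultures received 4-OHT or no treatment, and RNA was taken 1, 2, 3 or 4 days after the end of the 4-OHT exposure. Animal age is not stated in the labels. Each of the 16 combinations had 2 libraries, which gives 32, and neither animals nor batches nor replicate numbers are labelled, so that p-values measure the spread between libraries that may be technical replicates.

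Library totals ranged from 35120505 to 63760884 estimated counts (median 44841991). Values below are CPM, that is counts scaled to a common library total, with TMM factors. A difference was called at an adjusted p below 0.01 in the quasi-likelihood test of edgeR, adjusted by Benjamini-Hochberg over 15257 tested genes, and all 9 ligand genes were among them. SE stands for the standard error of a log2 fold change. Comparisons of genotype or 4-OHT had 2 libraries in each group. Changes between days in untreated cells took both genotypes together, with 4 libraries a day. All 8 macrophage markers passed the filter on low counts, with Lyz2 between 11100 and 34000 CPM and Adgre1 between 952 and 4980 CPM. Defining T cell genes were absent or nearly so, since Cd8a had no count in any of the 32 libraries and Cd3e and Cd3g had none in 31, but Cd4 reached 52.9 CPM. The 8 dendritic cell markers together held between 0.908 and 3.69 CPM, with Cd209a at 0 in 28 libraries. The 2 untreated FL/FL libraries of day 1 differed from each other more than any other pair (chi-square per degree of freedom 51.6, against 9.55 to 21.8 in the others). After 4-OHT, both FL/FL libraries of days 1, 3 and 4 had 0 Trex1 counts, and those of day 2 had 14 and 9. In WT/FL cells 4-OHT lowered Trex1 on day 1 from 32.0 and 28.6 CPM to 15.0 and 12.2 CPM (log2 fold change −1.16, SE 0.105, adjusted p = 6.77e-06), so that the controls had lost part of their Trex1 mRNA. Trex1 was also called lower in this comparison on days 2, 3 and 4 (log2 fold change −1.06, −0.86 and −0.80). All 31-base words of Trex1 transcripts also occur in the overlapping gene Atrip.

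A T cell that recognizes an antigen on a macrophage also reads other surface proteins of that cell. CD80 and CD86, which bind CD28 and CTLA-4, ICOS ligand and 4-1BB ligand (Tnfsf9) deliver costimulation, and CD40 is the receptor through which an activated T cell signals back to the macrophage. PD-L1 (Cd274) and PD-L2 (Pdcd1lg2) bind PD-1 and restrain the T cell, as do VISTA (Vsir) and galectin-9 (Lgals9), a secreted lectin that binds TIM-3. Interferons are known to raise PD-L1, and signals through NF-κB are known to raise CD40 and the CD28 ligands in macrophages. Only mRNA was measured here, and in bulk RNA fewer cells that express a gene and less RNA per cell cannot be told apart.

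Promoter sequence is shown for Cd274, Lgals9 and Cd40, because these 3 mRNAs had the largest genotype differences after 4-OHT among the 8 genes other than Pdcd1lg2, which had few counts, and their promoters held a motif that was searched. The sequences run 5′ to 3′ on the strand of the gene, from 100 bases before to 20 bases after the start of the Ensembl canonical transcript of GENCODE vM39, on the GRCm39 genome. Capitals mark the motif match.
Cd274, chr19:29344429-29344548, plus strand: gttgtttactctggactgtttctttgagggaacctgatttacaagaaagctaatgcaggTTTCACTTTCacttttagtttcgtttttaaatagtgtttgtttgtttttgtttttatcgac
Lgals9, chr11:78875779-78875898, minus strand: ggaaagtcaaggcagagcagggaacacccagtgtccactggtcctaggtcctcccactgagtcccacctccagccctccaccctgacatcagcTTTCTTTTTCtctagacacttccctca
Cd40, chr2:164897444-164897563, plus strand: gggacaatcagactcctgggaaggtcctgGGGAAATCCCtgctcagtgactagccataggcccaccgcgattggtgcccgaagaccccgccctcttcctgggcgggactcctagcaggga

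Motifs of 3 kinds were searched on both strands in the window from 250 bases before to 50 bases after each start, with the first transcribed base counted as 1. The core of the interferon-stimulated response element (ISRE), GAAANNGAAA, was found in the windows of Cd274 (bases −41 to −32, reverse strand) and Lgals9 (bases −7 to 3, reverse strand) and in 3.89% of the windows of 15155 tested genes. The κB motif was found in Cd40 (bases −71 to −62) and Pdcd1lg2 (bases −244 to −235) and in 4.90% of all windows. The gamma-activated site, TTCNNNGAA, was found in none of the 9 genes and in 7.81% of all windows. The windows of Cd80, Cd86, Tnfsf9, Icosl and Vsir held none of these motifs. The canonical start of Cd80 lies inside the annotated gene, which begins at base 38275923. Its window (38279045 to 38279344) therefore does not cover the 5′ end of the gene, which was not searched. A match is a run of letters and was not tested for binding. The motifs do not overlap one another in the 4 windows that hold one.

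Levels of different genes were compared as CPM per kilobase of annotated exon. Lgals9 (mean of 104 over the 32 libraries, range 34.0 to 233) and Vsir (102, range 37.4 to 155) were the most abundant of these mRNAs and overlapped each other in range. Cd274 (14.1, range 2.29 to 36.0) and Cd86 (11.7, range 2.01 to 23.6) came next and also overlapped. Icosl (5.47), Tnfsf9 (5.26), Cd80 (4.44) and Cd40 (3.25) followed, and each overlapped the next in this order. Pdcd1lg2 stood apart at a mean of 0.115 CPM per kilobase and a highest value of 0.343, below the lowest Cd40 value of 1.33. The only other gap in the order lay between Vsir and Cd274. With the longest transcript as the length, 5 of the 9 genes kept their rank, as Cd86 passed Cd274 and Cd80 passed Tnfsf9.

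**Figure D1:**
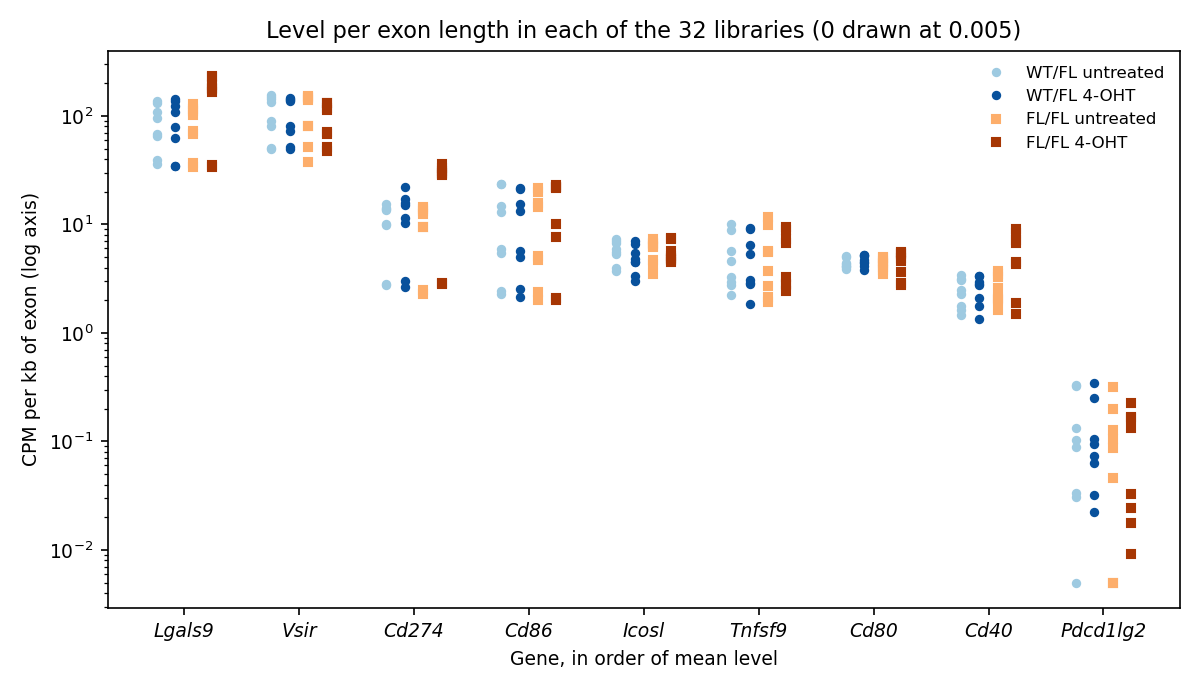
Level of each gene in CPM per kilobase of exon (log axis) in the 32 libraries, with genes ordered by mean level and points coloured by genotype and treatment. Lgals9 and Vsir form the upper pair at means of 104 and 102, and Pdcd1lg2 lies below all other genes at a mean of 0.115.

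Cd274 (ENSMUSG00000016496.7) and Pdcd1lg2 (ENSMUSG00000016498.10), the PD-1 ligand genes, are neighbours on chromosome 19 (29344529 to 29365495 and 29388319 to 29448882, both on the plus strand), with 22823 bases and no other protein-coding gene between them. Exons of Cd274 overlap those of Plgrkt and Gm36043 on the other strand, and whether the libraries keep strand is not stated.

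Cd274 rose with days in culture even in cells that never received 4-OHT. Untreated WT/FL libraries held 11.5 and 11.2 CPM on day 1, 39.9 and 40.8 on day 2, 55.3 and 63.0 on day 3 and 57.4 and 56.8 on day 4. Untreated FL/FL libraries held 10.1 and 9.33, 39.0 and 39.0, 58.6 and 57.0, and 50.6 and 53.8 CPM on the same days. Day 1 lay far below the later days in both genotypes. Over both untreated genotypes the log2 change was 1.92 (SE 0.0649, adjusted p = 2.46e-19) from day 1 to day 2, 0.56 (SE 0.0593, adjusted p = 5e-09) from day 2 to day 3 and −0.10 (SE 0.0589, adjusted p = 0.215) from day 3 to day 4.

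After 4-OHT, FL/FL cells held 11.8 and 11.5 CPM of Cd274 on day 1, 116 and 119 on day 2, 147 and 136 on day 3 and 122 and 128 on day 4. The 4-OHT-treated WT/FL libraries held 10.8 and 12.3, 42.5 and 46.8, 69.9 and 89.5, and 62.1 and 64.8 CPM. The genotypes overlapped on day 1, and from day 2 on every FL/FL library exceeded every WT/FL library of its day. The log2 difference was 0.01 (SE 0.0942) on day 1, 1.40 (SE 0.0835, 2.63-fold) on day 2, 0.83 (SE 0.0815, 1.77-fold) on day 3 and 0.98 (SE 0.0822, 1.97-fold) on day 4. Against untreated FL/FL cells the log2 difference was 0.26 (SE 0.0957), 1.59 (SE 0.0843), 1.29 (SE 0.0831) and 1.26 (SE 0.0833) on days 1 to 4.

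Cd274 was also the only one of the 9 mRNAs called between WT/FL cells with and without 4-OHT. In these cells the drug, active Cre and partial loss of Trex1 come together and cannot be told apart. On day 3 Cd274 was 1.35-fold higher than in untreated WT/FL cells (log2 fold change 0.43, SE 0.0823, adjusted p = 0.00651), with no overlap between the 2 and 2 libraries. This call was lost when WT/FL 4-OHT replicate 2 of day 3 (log2 fold change 0.24) or untreated replicate 1 of day 3 (0.34) was left out, and in a fit of the 16 WT/FL libraries alone (0.43). On days 1, 2 and 4 the log2 difference was 0.03 (SE 0.0957, adjusted p = 1), 0.15 (SE 0.0838, adjusted p = 1) and 0.15 (SE 0.0826, adjusted p = 0.787). The change of the 4-OHT effect between days was not called for any of the 9 genes in WT/FL cells.

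Pdcd1lg2 was close to the detection limit in every library, with 0 to 35 counts. In untreated WT/FL cells the 2 libraries held 3 and 0 counts on day 1, 16 and 10 on day 2, 35 and 31 on day 3 and 4 and 7 on day 4. Those of untreated FL/FL cells held 0 and 0, 9 and 5, 18 and 26, and 13 and 10 counts. The counts were highest on day 3 in both genotypes. The rise from day 1 to day 2 was called (adjusted p = 0.000365), and no fold is given because 3 of the 4 untreated day 1 libraries held 0 counts. The log2 change was 1.70 (SE 0.593, adjusted p = 0.0164) from day 2 to day 3 and −1.80 (SE 0.605, adjusted p = 0.0239) from day 3 to day 4.

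After 4-OHT, Pdcd1lg2 had 1 and 2 counts on day 1, 3 and 11 on day 2, 13 and 22 on day 3 and 2 and 17 on day 4 in FL/FL cells. In WT/FL cells it had 3 and 9, 10 and 4, 30 and 35, and 10 and 11 counts. On days 2 and 4 the genotypes overlapped, and the 2 FL/FL libraries of day 4 differed by more than the genotypes did. A difference the size of that of Cd274 was not detectable at this depth, since the SE of the log2 difference lay between 0.797 and 1.13.

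Lgals9 (ENSMUSG00000001123.15, chromosome 11, 78853800 to 78875798, minus strand) encodes galectin-9. Untreated WT/FL libraries held 89.6 and 81.5 CPM on day 1, 310 and 301 on day 2, 219 and 246 on day 3 and 148 and 154 on day 4. In untreated FL/FL cells the libraries held 77.3 and 84.4, 292 and 263, 252 and 233, and 164 and 154 CPM. In untreated cells the mRNA thus peaked on day 2 and then declined. In the test over both genotypes, the log2 change was 1.81 (SE 0.0639, adjusted p = 7.39e-18) from day 1 to day 2, −0.29 (SE 0.0617, adjusted p = 0.000226) to day 3 and −0.61 (SE 0.0622, adjusted p = 3.13e-08) to day 4.

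In FL/FL cells given 4-OHT, Lgals9 stood at 77.3 and 80.8 CPM on day 1, 515 and 529 on day 2, 436 and 403 on day 3 and 413 and 378 on day 4. The WT/FL libraries held 78.7 and 78.9, 322 and 312, 245 and 278, and 142 and 180 CPM. From day 2 to day 4 the WT/FL values fell toward those of day 1, while the lowest FL/FL value of days 2 to 4 was 378 CPM. The log2 difference between genotypes was 0.01 (SE 0.0889) on day 1, 0.72 (SE 0.0873) on day 2, 0.68 (SE 0.0873) on day 3 and 1.30 (SE 0.0886, 2.46-fold) on day 4. Compared with untreated FL/FL cells, it was −0.03 (SE 0.0889), 0.91 (SE 0.0876), 0.79 (SE 0.0876) and 1.31 (SE 0.0888).

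Vsir (ENSMUSG00000020101.14, chromosome 10, 60182630 to 60208463, plus strand) encodes VISTA and lies within Cdh23 on the opposite strand without overlap of exons. It rose over time in untreated cells, from 253 and 247 CPM on day 1 to 447 and 405 on day 2, 775 and 748 on day 3 and 718 and 676 on day 4 in WT/FL libraries. Untreated FL/FL libraries held 262 and 188, 404 and 402, 764 and 743, and 730 and 707 CPM. The log2 change was 0.81 (SE 0.0653, adjusted p = 1.6e-10) from day 1 to day 2, 0.87 (SE 0.0652, adjusted p = 4.22e-11) to day 3 and −0.10 (SE 0.0647, adjusted p = 0.272) to day 4. The level thus reached a plateau on day 3.

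After 4-OHT, Vsir stood at 262 and 240 CPM on day 1, 358 and 342 on day 2, 573 and 593 on day 3 and 661 and 662 on day 4 in FL/FL cells, and at 262 and 251, 408 and 365, 741 and 690, and 705 and 711 CPM in WT/FL cells. The FL/FL libraries lay below the WT/FL libraries on days 2, 3 and 4. The log2 difference was −0.03 (SE 0.0919), −0.14 (SE 0.0918), −0.30 (SE 0.0915) and −0.10 (SE 0.0915) on days 1 to 4 and was not called on any day, though the value of day 3 was called in a fit of the 16 libraries given 4-OHT. Relative to FL/FL cells without 4-OHT, it was 0.16 (SE 0.0920) on day 1, −0.20 (SE 0.0918) on day 2, −0.37 (SE 0.0916, called) on day 3 and −0.12 (SE 0.0915) on day 4. The call on day 3 was lost when any of its 4 libraries was left out (log2 difference −0.34 and −0.39 without 4-OHT replicates 1 and 2, −0.35 and −0.39 without untreated replicates 1 and 2) and in a fit of the 16 FL/FL libraries alone (−0.38).

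The 2 untreated FL/FL libraries of day 1, which stood apart, disagreed on Vsir as well. Without replicate 1, Vsir was called lower in untreated FL/FL than in untreated WT/FL cells on day 1 (log2 difference −0.42, adjusted p = 0.000136) and called higher after 4-OHT than in untreated FL/FL cells (0.42). With both libraries the untreated log2 difference was −0.15 (SE 0.0921, adjusted p = 0.784).

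Cd86 (ENSMUSG00000022901.13, chromosome 16, 36424044 to 36486443, minus strand) and Cd80 (ENSMUSG00000075122.5, chromosome 16, 38275923 to 38316697, plus strand) share the receptors CD28 and CTLA-4 and lie 1789479 bases apart. Exons of Cd80 overlap those of Timmdc1 and Gm60172 on the other strand. Cd86 had the largest rise in culture of the 8 mRNAs other than Pdcd1lg2. Untreated WT/FL libraries held 8.85 and 9.41 CPM on day 1, 22.8 and 20.8 on day 2, 90.7 and 90.3 on day 3 and 49.6 and 56.5 on day 4. Those of untreated FL/FL cells held 7.74 and 9.17, 17.9 and 19.6, 76.1 and 83.3, and 56.1 and 60.8 CPM. Both genotypes peaked on day 3. Over both genotypes the log2 change was 1.2 (SE 0.0843, adjusted p = 5.66e-12) from day 1 to day 2, 2.07 (SE 0.0785, adjusted p = 2.97e-17) to day 3 and −0.61 (SE 0.0743, adjusted p = 6.09e-07) to day 4.

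With 4-OHT, FL/FL cells held 7.73 and 8.14 CPM of Cd86 on day 1, 29.4 and 39.2 on day 2, 88.5 and 84.9 on day 3 and 85.0 and 83.1 on day 4. In WT/FL cells the values were 9.70 and 8.18, 22.1 and 19.2, 82.5 and 81.1, and 51.1 and 58.9 CPM. The genotypes lay apart on day 2, close together at the day 3 peak and apart again on day 4, when WT/FL cells had declined and FL/FL cells had not. The log2 difference was −0.17 (SE 0.124), 0.73 (SE 0.111), 0.08 (SE 0.104) and 0.61 (SE 0.105) on days 1 to 4. Against untreated FL/FL cells it was −0.09 (SE 0.125), 0.87 (SE 0.112), 0.12 (SE 0.104) and 0.53 (SE 0.105). The last of these was no longer called without untreated FL/FL replicate 1 of day 4 (0.47).

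Cd80 moved least of the 9 mRNAs, between 11.5 and 22.9 CPM over the 32 libraries. Untreated WT/FL libraries held 17.8 and 21.2 CPM on day 1, 17.0 and 16.6 on day 2, 18.1 and 20.5 on day 3 and 16.2 and 17.0 on day 4. Untreated FL/FL libraries held 20.9 and 20.3, 14.4 and 15.7, 18.1 and 17.9, and 16.8 and 19.1 CPM. It fell from day 1 to day 2 (log2 change −0.34, SE 0.0783, adjusted p = 0.000534), and its later changes of 0.23 (SE 0.0789, adjusted p = 0.0145) to day 3 and −0.11 (SE 0.0789, adjusted p = 0.313) to day 4 were not called.

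After 4-OHT the lowest Cd80 values of the series occurred in FL/FL cells on day 2, at 12.0 and 11.5 CPM against 15.6 and 18.2 CPM in WT/FL cells (log2 difference −0.53, SE 0.114). It is the only 1 of the 9 mRNAs called lower in FL/FL cells in this comparison, and its direction on that day was opposite to that of Cd86. The call was lost without WT/FL 4-OHT replicate 2 of day 2 (−0.41) and without FL/FL 4-OHT replicate 1 (−0.56) or 2 (−0.50) of day 2. FL/FL cells held 22.2 and 20.3 CPM on day 1, 22.4 and 22.9 on day 3 and 15.1 and 19.0 on day 4, and WT/FL cells 21.8 and 21.2, 18.5 and 21.5, and 17.0 and 19.5. The log2 difference on those days was −0.02 (SE 0.109), 0.18 (SE 0.110) and −0.09 (SE 0.112). Compared with untreated FL/FL cells, it was 0.04 (SE 0.109) on day 1, −0.36 (SE 0.114) on day 2, 0.33 (SE 0.111) on day 3 and −0.07 (SE 0.113) on day 4, with no call, though day 2 was called with library size alone (−0.46).

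Icosl (ENSMUSG00000000732.9, chromosome 10, 77905136 to 77919747, plus strand) encodes the ligand of ICOS. Untreated WT/FL libraries held 24.9 and 26.0 CPM on day 1, 34.0 and 32.4 on day 2, 27.2 and 31.1 on day 3 and 17.1 and 18.3 on day 4. Those of untreated FL/FL cells held 21.6 and 28.8, 31.4 and 34.1, 29.1 and 30.5, and 19.9 and 16.1 CPM. The lowest level was that of day 4 in both genotypes. In the test over both genotypes, the log2 change was 0.38 (SE 0.0786, adjusted p = 0.000147) from day 1 to day 2, −0.16 (SE 0.0786, adjusted p = 0.0808) to day 3 and −0.72 (SE 0.0807, adjusted p = 7.53e-08) to day 4.

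After 4-OHT, Icosl stood at 21.7 and 20.6 CPM on day 1, 34.4 and 33.9 on day 2, 26.4 and 22.0 on day 3 and 23.5 and 22.7 on day 4 in FL/FL cells. In WT/FL cells it stood at 20.8 and 20.6, 30.4 and 32.7, 22.4 and 25.2, and 14.0 and 15.6 CPM. The log2 difference was 0.03 (SE 0.112), 0.11 (SE 0.111), 0.02 (SE 0.113) and 0.64 (SE 0.116) on days 1 to 4, and day 4 alone was called. On that day the WT/FL 4-OHT libraries also lay below the untreated WT/FL libraries, with a log2 difference of −0.25 (SE 0.116, adjusted p = 0.65). Relative to FL/FL cells without 4-OHT, the difference was −0.25 (SE 0.112), 0.06 (SE 0.111), −0.31 (SE 0.113) and 0.36 (SE 0.115), with no call. The value of day 4 was called without untreated FL/FL replicate 1 of day 4 (0.52) and without either untreated FL/FL library of day 1 (0.35 each). It was also called with no filter on low counts (0.35).

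Cd40 (ENSMUSG00000017652.16, chromosome 2, 164897544 to 164914868, plus strand) encodes a receptor of the TNF receptor family. In untreated cells its mRNA rose on day 2 and returned to the level of day 1 by day 4. WT/FL libraries held 5.03 and 7.76 CPM on day 1, 10.5 and 11.7 on day 2, 8.52 and 10.8 on day 3 and 5.52 and 6.03 on day 4. FL/FL libraries held 5.49 and 7.18, 11.8 and 12.7, 11.1 and 8.82, and 6.87 and 7.03 CPM. The log2 change was 0.88 (SE 0.158, adjusted p = 5.61e-05) from day 1 to day 2, −0.25 (SE 0.155, adjusted p = 0.18) to day 3 and −0.63 (SE 0.161, adjusted p = 0.00412) to day 4. From day 1 to day 4 the log2 change was −0.01 (SE 0.162), far from a call. The call from day 3 to day 4 was lost in 6 of the 8 fits that left out a library of these days, namely WT/FL replicate 2 of day 3 (−0.54), WT/FL replicates 1 and 2 of day 4 (−0.60 and −0.66), FL/FL replicate 1 of day 3 (−0.54) and FL/FL replicates 1 and 2 of day 4 (−0.63 and −0.64).

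After 4-OHT, FL/FL cells held 5.07 and 6.39 CPM of Cd40 on day 1, 28.5 and 30.9 on day 2, 15.4 and 14.6 on day 3 and 24.6 and 23.0 on day 4. The WT/FL libraries held 4.54 and 7.10, 10.1 and 11.3, 11.3 and 9.42, and 5.99 and 9.53 CPM. The FL/FL values were high on days 2 and 4 and lower between, whereas Cd274 and Lgals9 did not dip in this way. Replicate 2 held more Cd40 than replicate 1 in every group of days 1 and 2, and whether such libraries share a culture is not labelled. The log2 difference was −0.02 (SE 0.228), 1.47 (SE 0.216, 2.78-fold), 0.53 (SE 0.217) and 1.62 (SE 0.221, 3.08-fold) on days 1 to 4, with calls on days 2 and 4. The difference of day 4 was the largest of the 8 genes other than Pdcd1lg2 and moved between 1.32 and 1.99 when libraries were left out. Against untreated FL/FL cells the log2 difference was −0.14 (SE 0.227), 1.27 (SE 0.215), 0.59 (SE 0.219) and 1.77 (SE 0.224). Its value of day 3 was not called, though it was with no filter on low counts (0.59) and in a fit of the 16 FL/FL libraries alone (0.58).

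Tnfsf9 (ENSMUSG00000035678.8, chromosome 17, 57412298 to 57414769, plus strand), the gene of 4-1BB ligand, was lower on day 4 than on day 1 in every combination of genotype and treatment. Its exons overlap those of Gm11110 on the other strand. Untreated WT/FL libraries held 11.9 and 13.5 CPM on day 1, 6.17 and 7.56 on day 2, 3.65 and 4.33 on day 3 and 2.97 and 3.93 on day 4. Untreated FL/FL libraries held 13.0 and 15.5, 7.58 and 7.45, 4.95 and 3.61, and 2.83 and 2.58 CPM. In the test over both genotypes, the log2 change was −0.91 (SE 0.129, adjusted p = 7.09e-07) from day 1 to day 2, −0.79 (SE 0.135, adjusted p = 1.27e-05) to day 3 and −0.44 (SE 0.143, adjusted p = 0.0186) to day 4, which was called without untreated FL/FL replicate 2 of day 3 (−0.54). Over days 1 to 4 it fell by 2.14 on the log2 scale (SE 0.138, adjusted p = 7.41e-14).

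After 4-OHT, Tnfsf9 stood at 11.8 and 12.5 CPM on day 1, 8.99 and 9.66 on day 2, 3.74 and 3.64 on day 3 and 3.24 and 4.36 on day 4 in FL/FL cells and at 12.0 and 12.3, 7.10 and 8.65, 4.09 and 2.46, and 3.80 and 3.78 CPM in WT/FL cells. The log2 difference between genotypes was 0.01 (SE 0.177), 0.24 (SE 0.183), 0.16 (SE 0.199) and 0.00 (SE 0.202) on days 1 to 4, with no call. Compared with untreated FL/FL cells, it was −0.23 (SE 0.177), 0.31 (SE 0.184), −0.22 (SE 0.199) and 0.48 (SE 0.207), also without a call.

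**Figure D2:**
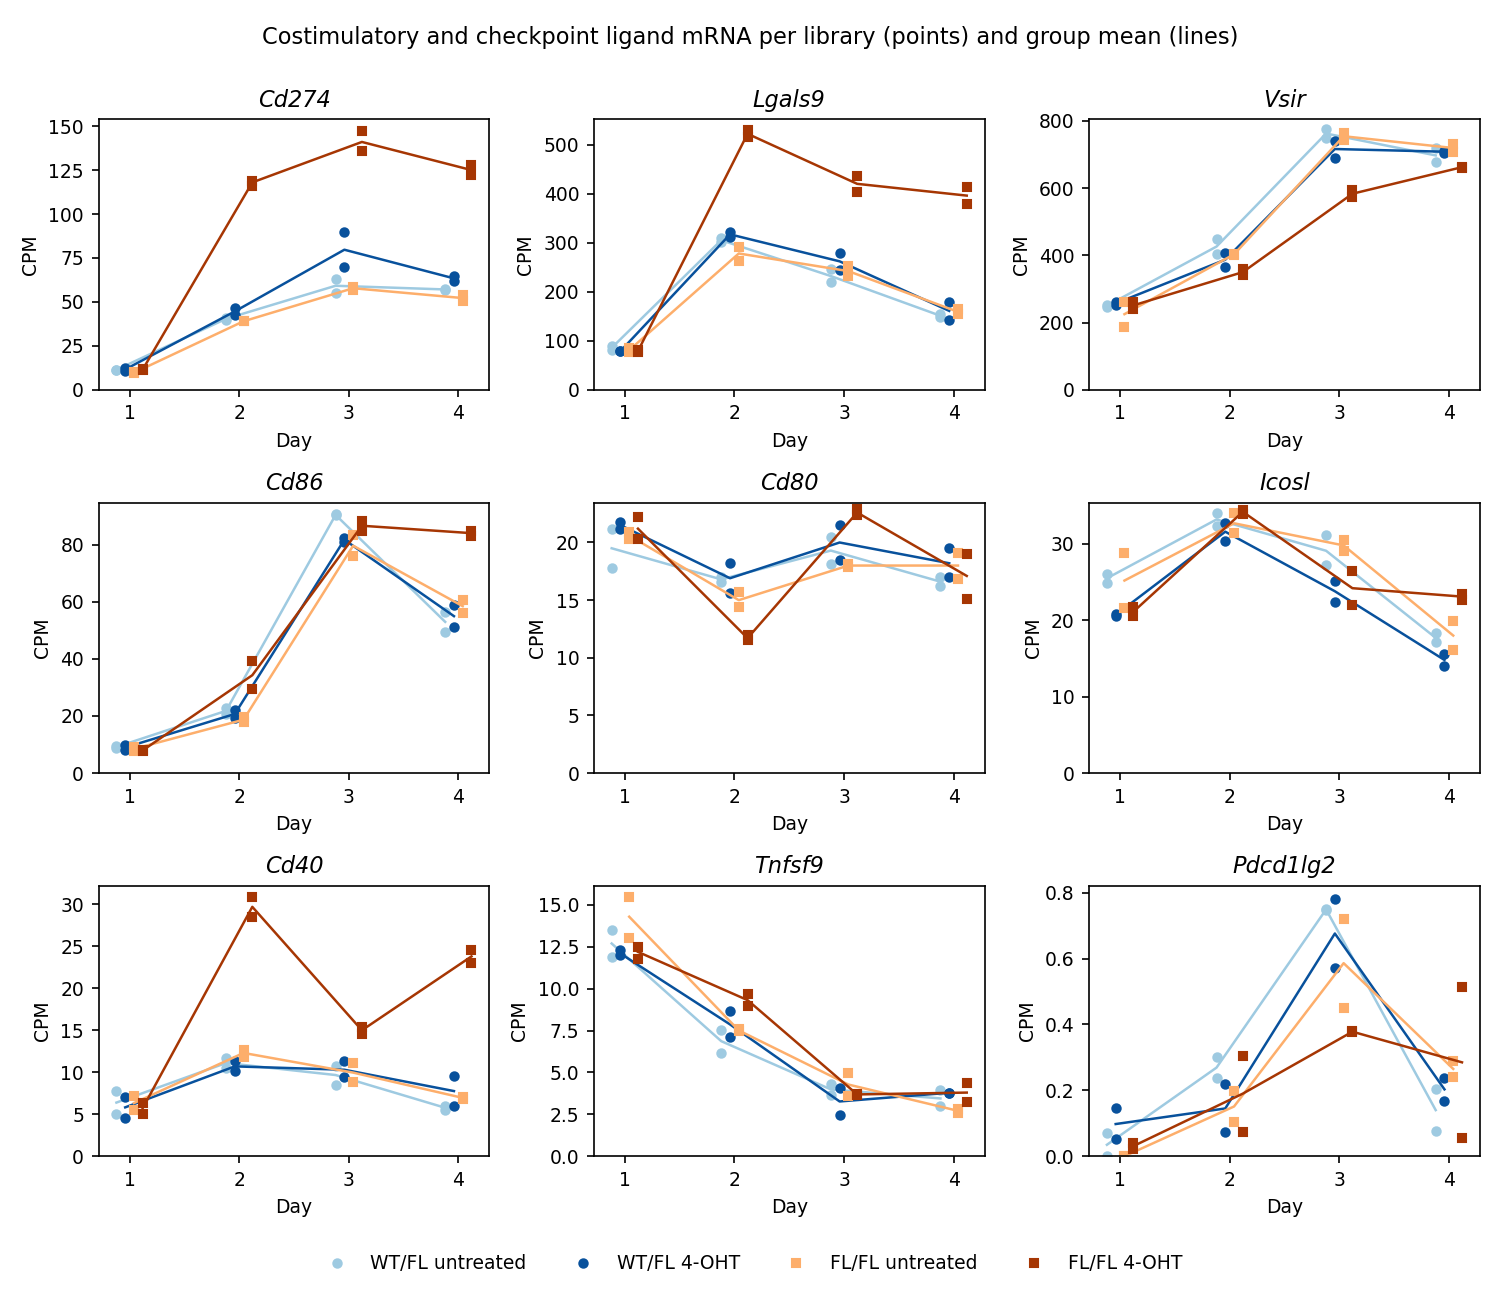
CPM of each of the 9 mRNAs (linear axes from 0, own scale for each gene) against day, with a point for each library and lines through the means of 2 libraries. The 4-OHT-treated FL/FL points of Cd274 lie at 116 to 147 CPM on days 2 to 4, above all control points, and Cd40 shows high points on days 2 and 4.

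Counted over the 9 genes, the genotype difference after 4-OHT was called for 0 on day 1, 5 on day 2 (4 higher and 1 lower in FL/FL cells), 2 on day 3 (both higher) and 5 on day 4 (all higher). Of all 15257 tested genes, 0.0197%, 8.17%, 12.1% and 21.5% were called on these days. As the genes were listed with this comparison known, nothing is read from these shares. On day 1, none of the 9 had an unadjusted p below 0.05 in edgeR, beside 308 of all 15257 tested genes, and DESeq2 called none of the 9. With the added limit of an absolute log2 fold change above 1.5, Cd40 on day 4 was the only call among the 9, against 0.0131%, 0.583%, 0.872% and 2.98% of all tested genes on days 1 to 4. The median log2 difference of the 9 genes was −0.02, 0.383, 0.164 and 0.614 on days 1 to 4, beside −0.011, −0.010, −0.007 and −0.037 over all tested genes. Scaling to library size alone moved the median of all genes to −0.132 on day 4 and left the 12 calls of the 9 genes in place. Over all genes, the share of calls that were higher in FL/FL cells was 69.7%, 55.2% and 45.7% on days 2 to 4 with TMM factors and 42.5%, 42.1% and 27.8% with library size alone.

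Within FL/FL cells, 4-OHT gave calls for 0, 4, 3 and 4 of the 9 genes on days 1 to 4, beside 0.0131%, 11.1%, 15.7% and 21.4% of all tested genes. Those of days 2 and 4 were Cd274, Lgals9, Cd86 and Cd40, all higher, and those of day 3 were Cd274 and Lgals9, higher, and Vsir, lower. On day 1, 2 of the 9 genes (Cd274 and Icosl) had an unadjusted p below 0.05 in edgeR, beside 1068 of all tested genes. DESeq2 called none of the 9 on that day. This comparison shares the 4-OHT-treated FL/FL libraries with the comparison of genotypes, so that their calls are not independent. The share of higher calls over all genes was 67.6%, 51.8% and 47.6% on days 2 to 4 with TMM factors and 36.4%, 39.6% and 31.9% with library size alone.

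Among the 9 genes the control comparisons gave 1 call. In WT/FL cells, 4-OHT gave 0, 0, 1 and 0 calls among the 9 genes on days 1 to 4 in edgeR and in DESeq2, the 1 being Cd274 on day 3. Over all tested genes 0.00655%, 0.0918%, 0.341% and 0.216% were called. At an unadjusted p below 0.05 there were 1, 0, 2 and 1 of the 9 genes on days 1 to 4, beside 378, 530, 1281 and 1080 of all tested genes. Icosl was the gene on days 1 and 4 and the gene beside Cd274 on day 3. It was lower with 4-OHT (log2 difference −0.30, SE 0.112, on day 1, −0.29, SE 0.112, on day 3 and −0.25 on day 4). Between untreated FL/FL and WT/FL cells, edgeR and DESeq2 called none of the 9 genes on any day. Over all tested genes 0% were called on days 1, 2 and 3 and 0.0655% on day 4. At an unadjusted p below 0.05, Cd274 on day 1 was the only 1 of the 9 (log2 difference −0.23, SE 0.0971, adjusted p = 0.625), and 1129, 588 and 468 of all genes passed that limit on days 1 to 3, where DESeq2 called 1, 6 and 6 genes. On day 4 more genes separated the untreated genotypes, with 2414 at an unadjusted p below 0.05, 10 called by edgeR and 247 called by DESeq2. The untreated log2 differences of the genes other than Pdcd1lg2 lay between −0.33 (Tnfsf9 on day 4) and 0.27 (Cd40 on day 4).

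**Figure D3:**
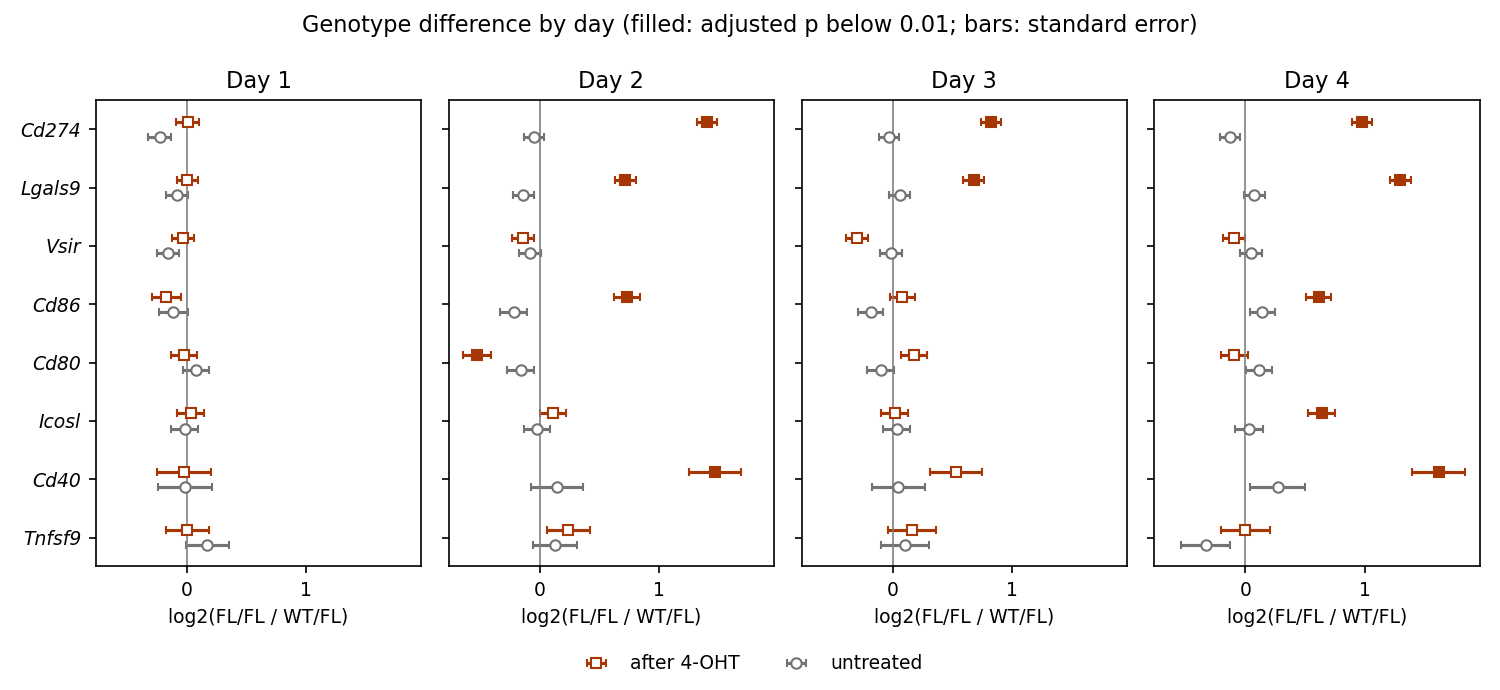
Log2 ratio of FL/FL to WT/FL cells on days 1 to 4 after 4-OHT (squares) and in untreated cells (circles), with bars of 1 standard error and filled symbols for calls, for the 8 genes other than Pdcd1lg2. All untreated symbols are open, and Cd274 and Lgals9 are filled on days 2, 3 and 4 after 4-OHT.

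Days in culture, compared with 4 libraries a day, gave more calls among these genes than genotype or 4-OHT did, with 2 libraries a group. In untreated cells all 9 were called from day 1 to day 2 (7 higher and 2 lower, where 49.6% of all tested genes were called). From day 2 to day 3 there were 5 calls (3 higher and 2 lower, against 48.2% of all genes), from day 3 to day 4 there were 4 (all lower, against 22.5%) and from day 1 to day 4 there were 7 (5 higher and 2 lower, against 64% of all genes). With library size alone as the scaling, the share of calls over all genes that were rises was 40.7%, 36.1% and 38.3% from day 1 to day 2, day 2 to day 3 and day 1 to day 4, beside 51.7%, 51.5% and 51.1% with TMM factors, and no call of the 9 genes was lost. The share called from day 1 to day 4, 7 of 9, thus stood beside a background in which most genes changed. Between days 1 and 4 Cd86 rose by 2.66 (SE 0.0837, adjusted p = 2.02e-19, 6.33-fold), Cd274 by 2.38 (SE 0.0651, adjusted p = 4.13e-22), Vsir by 1.58 (SE 0.0664, adjusted p = 2.39e-16) and Lgals9 by 0.90 (SE 0.0630, adjusted p = 2.07e-12), while Icosl fell by 0.50 (SE 0.0805, adjusted p = 2.88e-06). For Cd80 the value was −0.22 (SE 0.0783, adjusted p = 0.0147), which was called without untreated WT/FL replicate 1 of day 1 (−0.28) and without untreated FL/FL replicate 2 of day 4 (−0.27), and also with RLE factors (−0.25), library size alone (−0.42), the 16 untreated libraries (−0.24) and DESeq2 (−0.25). A difference between genotypes in the change from one day to the next was not called for any of the 9 genes in untreated cells. The 8 macrophage markers together also varied, between 15600 and 48100 CPM (median 31600) over the untreated FL/FL libraries of the 4 days, and the part of this in the changes of the ligands was not tested. Lyz2 was the most abundant of the 8, at 11100 to 34000 CPM over the 32 libraries.

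**Figure D4:**
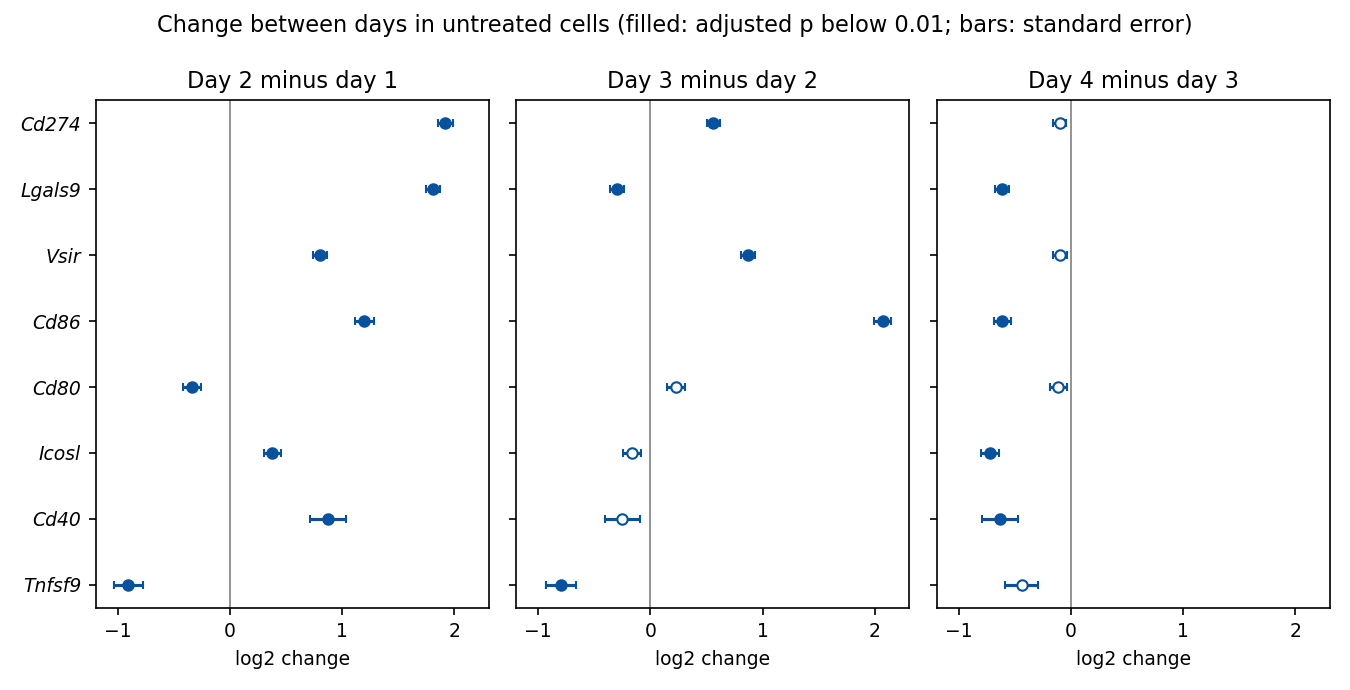
Log2 change between neighbouring days in untreated cells of both genotypes (4 libraries for each day) with bars of 1 standard error and filled symbols for calls, for the 8 genes other than Pdcd1lg2. All 8 symbols are filled from day 1 to day 2, Cd86 has the largest later rise, 2.07 from day 2 to day 3, and no symbol lies to the right of 0 from day 3 to day 4.

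Within the 9 genes, the group means of log2 CPM over the 16 groups gave Pearson correlations that are descriptions only, since the groups share days, genotypes and treatments. Vsir and Cd86 (r = 0.954) and Cd40 and Lgals9 (r = 0.896) ran most closely together with Cd274 and Cd86 (0.891) and Cd274 and Lgals9 (0.890), and Tnfsf9 ran opposite to Vsir (−0.975). Cd80 and Cd86, which share receptors, had an r of −0.137, and Cd80 had no positive r above 0.0224 with any other gene of the 9. The genes outside the 9 that were most alike over the 16 group means were Asb13 (r = 0.994), Rufy3 (0.993) and Ccrl2 (0.992) for Cd274, and Parp12 (0.998), Eif2ak2 (0.995) and Trim21 (0.994) for Lgals9. For Cd40 they were Rnf34 (0.981), Max (0.977) and Pcsk7 (0.965), and for Cd86 Arhgef3 (0.993), Tmem214 (0.992) and Pfkfb3 (0.992). Vsir was most like Iffo1 (0.997), Ninj1 (0.995) and Tbc1d2b (0.995), and Tnfsf9 most like Pdlim5 (0.984), Vrk1 (0.983) and Slc25a24 (0.98). For Icosl the values were lower, with Sigirr (0.932), Xbp1 (0.905) and Pck2 (0.902), as for Cd80 with Dis3l (0.894), Ppcdc (0.856) and Ptch1 (0.854). Pdcd1lg2 was most like 9330160F10Rik (0.955), Tifab (0.952) and Txnip (0.945), at its few counts.

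Other surface or secreted ligands that T cells read were taken from a list of 27 genes, of which 21 were tested. In the genotype difference after 4-OHT, 0, 4, 7 and 5 of them were called higher and 0, 0, 2 and 1 lower in FL/FL cells on days 1 to 4, with a median log2 difference of 0.10 on day 4. Of all tested genes, 0.0197%, 8.17%, 12.1% and 21.5% were called on these days. Tnfsf8, the CD30 ligand, held 10.3 ± 0.424 CPM in FL/FL and 0.685 ± 0.0819 CPM in WT/FL cells on day 4 (mean ± SD of 2 libraries), a log2 difference of 3.89 (SE 0.227). Fgl2, a secreted fibrinogen-like protein known to restrain T cells, held 704 ± 52.5 against 164 ± 25.8 CPM, a log2 difference of 2.10 (SE 0.207). Both were higher in FL/FL cells on days 2, 3 and 4. The others called on day 4 were Tnfsf15 (0.93), Cd47 (0.53), Lgals3 (0.27) and Nectin2 (−0.55). On day 3 the 2 called lower were Nectin3 (−1.27) and Tnfsf14 (−0.89), and the 7 called higher included Tnfsf4 (1.68) and Igsf11 (1.61). These genes are outside the rule for naming genes and were picked from their values.

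Of 18 receptors of these ligands, 11 were tested, in which calls were 0, 1, 1 and 1 higher and 0, 0, 1 and 2 lower on days 1 to 4. The share called over all tested genes was 0.0197%, 8.17%, 12.1% and 21.5%. Cd28, the receptor of CD80 and CD86, stood at 44.7 ± 2.70 CPM in FL/FL and 85.2 ± 7.48 CPM in WT/FL macrophages on day 4 (mean ± SD of 2 libraries, log2 difference −0.93, SE 0.0958) and was also called lower on day 3 (−0.74, SE 0.0947). The other calls of day 4 were Selplg (0.49, SE 0.0662), a receptor of VISTA, and Tnfrsf9, the 4-1BB receptor. Selplg was called higher on days 2 and 3 as well. Tnfrsf9 held 0.0151 ± 0.0214 against 0.461 ± 0.0405 CPM on day 4, close to the detection limit. It was not called on day 2 (0.807 ± 0.435 against 0.446 ± 0.0145 CPM) or day 3 (0.137 ± 0.0963 against 0.131 ± 0.131 CPM).

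All 13 genes of a list of CD40 signalling were tested. Of these, 0, 0, 1 and 2 were called higher and 0, 0, 2 and 2 lower on days 1 to 4, beside 0.0197%, 8.17%, 12.1% and 21.5% of all tested genes. Traf1, an adaptor of TNF family receptors, was higher in FL/FL cells on day 3 (0.72, SE 0.0913) and day 4 (1.02, SE 0.0919). Traf3, which restrains non-canonical NF-κB signalling, was lower on day 3 (−0.27, SE 0.0727) and day 4 (−0.36, SE 0.0731), as was Birc3 (−0.37, SE 0.0649, and −0.30, SE 0.0652), and Birc2 was higher on day 4 (0.30, SE 0.0748). The median of the list on day 4 was −0.02. On day 2, when Cd40 itself was 2.78-fold higher, none of the 13 genes was called. With 8.17% of all tested genes called on that day, 0 of 13 lies near the share over all genes.

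A list of 15 genes on the path from interferon receptors to PD-L1, all tested, gave 0, 7, 4 and 6 calls higher and 0, 1, 2 and 4 lower on days 1 to 4. Over all tested genes 0.0197%, 8.17%, 12.1% and 21.5% were called. Stat2, a transcription factor of interferon signalling, had a log2 difference of 1.99 (SE 0.122) on day 4. Irf1, which is known to drive Cd274, stood at 165 ± 9.18, 184 ± 0.294 and 153 ± 3.32 CPM in FL/FL cells on days 2, 3 and 4 and at 96.2 ± 2.99, 139 ± 8.02 and 78.2 ± 0.583 CPM in WT/FL cells (mean ± SD of 2 libraries), with log2 differences of 0.78, 0.41 and 0.97. Jak2 (0.62), Irf2 (0.50) and Cmtm4 (−0.41), which encodes a protein that stabilizes PD-L1, were also called on day 4. The 4 genes called lower on day 4 were Cmtm4, Ifnar1, Ifngr1 and Jak1, of which the last 3 were likewise picked from their values. The median of the list was 0.14 on day 4. These 4 lists, like the 9 genes, were written with results of the comparison known, and nothing is read from their shares of calls.

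Among the macrophage markers, Fcgr1 was called higher (log2 difference 2.27, SE 0.113) and Csf1r (−0.28) and Itgam (−0.35) were called lower in FL/FL cells on day 4 after 4-OHT. The summed level of all 8 markers was 28900 and 30900 CPM in the FL/FL and 30700 and 31400 CPM in the WT/FL libraries of that day. The FL/FL sums lay further below on day 2, at 26400 and 28400 against 31800 and 33800 CPM, and on day 3, at 38900 and 38500 against 47500 and 45300 CPM. Lyz2 alone made up most of these sums, with means of 18700 against 24400 CPM on day 2 and 26000 against 32800 CPM on day 3. On day 2, 1 of the 8 markers was called higher (Fcgr1) and 1 lower (Lyz2), beside 8.17% of all tested genes. On day 3, 2 of the 8 were called higher and 4 lower, beside 12.1% of all tested genes. The genotypes did not overlap in the summed level on days 2 and 3, and its part in the differences of the ligands was not tested. No tested dendritic cell, T cell, B cell, NK cell, neutrophil, mast cell or fibroblast marker was called on any day in this comparison. Of all tested genes, 0.0197%, 8.17%, 12.1% and 21.5% were called on days 1 to 4. Outside Cd4, Cd79b, S100a8 and S100a9, the highest median of these markers was 0.932 CPM (Zbtb46), so that a missing call says little. None of the 4 erythroid markers passed the filter. The summed dendritic cell markers were 1.77 and 1.79 CPM in FL/FL and 1.84 and 2.13 CPM in WT/FL libraries of day 4. The NK cell sums overlapped on day 1 and were higher in FL/FL libraries on days 2 to 4. On day 4 they were 0.747 and 0.393 against 0 and 0.216 CPM. Neutrophil sums of day 4 were lower in FL/FL libraries (4.4 and 5.05 against 11.2 and 5.84 CPM).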

How the data were processed

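RNA from BMDM cultures was sequenced in 32 libraries, and whether each came from its own culture is not labelled. The authors deposited gene-level estimated counts, made with Salmon against GRCm39 and stored as whole numbers. The annotation release is not given in the sources used here, and the submitters' processing notes also name FastQC 11.9 and DESeq2 1.32. Of 54281 Ensembl identifiers, 51048 matched GENCODE vM39 with the version removed, and unmatched rows held 0.32% of the counts. No column lacked a sample.

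Genes were filtered with filterByExpr at a minimum count of 10, scaled with TMM factors and fitted with robust edgeR 4.0.16 quasi-likelihood models in R 4.3.3, with 1 mean for each of the 16 groups and 16 residual degrees of freedom. DESeq2 1.42.0 was an alternative. A single gene tested by exact permutation of 2 against 2 libraries could not go below p = 0.33. log2 CPM used a prior count of 2. The pipeline was tested on simulated data for the genotype difference after 4-OHT on day 2 (15071 genes), where it called 79 of 100 genes changed by 0.6 and 94 of 100 changed by 1.5 on the log2 scale. Counts were drawn from the fitted model as independent libraries, and only genes with a mean above 1 CPM were changed. The simulation therefore does not cover genes with as few counts as Pdcd1lg2 or libraries that share a culture. The level of a gene per kilobase used the length of the union of its exons.

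The 9 genes, the lists of related genes and the tests were chosen with earlier results of these data known. All 9 genes and Trex1 are named. By rule, at most 6 genes of each related list were to be named, those with the largest change on day 4 among the called, and for each of the 9 genes the 3 most correlated genes outside them. Some genes that this rule selects are not reported here. Replicate numbers follow accession order and name libraries only.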

Additional observations from a re-analysis of the deposited data

How the results depend on the processing

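Values were recomputed under other settings, many of which could hardly change a sign. Other thresholds keep the estimate of the main fit, and leaving out a library outside the compared groups barely affects it. The count of kept signs is therefore no measure of stability. The 49 called values of the 9 genes kept their sign in all 1174 recomputations, which used RLE factors, library size alone, no filter on low counts, a minimum count of 50, DESeq2, 16 libraries per fit, other thresholds, or left out each library in turn. Of these, 55 were no longer called, 37 with the limit of 1.5 on the absolute log2 fold change, 16 when a library was left out and 2 with 16 libraries per fit. With the fold limit, calls over the 4 days fell from 12 to 1 for the genotype difference after 4-OHT, from 11 to 2 for 4-OHT in FL/FL cells, from 1 to 0 for 4-OHT in WT/FL cells and from 25 to 9 for days in culture. The WT/FL call (Cd274 on day 3) was also lost with 16 libraries per fit, which gave 0 calls, and ranged from 0 to 1 call over left-out libraries. The untreated genotype difference ranged from 0 to 1 call, the 1 being Vsir without untreated FL/FL replicate 1 of day 1. With no filter, Cd40 (0.54) and Vsir (−0.29) were also called on day 3 for the genotype after 4-OHT. The same setting called Cd40 on day 3 (0.59) and Icosl on day 4 (0.35) for 4-OHT in FL/FL cells, and Tnfsf9 from day 3 to day 4 (−0.43). Library size alone also called Cd80 for 4-OHT in FL/FL cells on day 2, which gave 12 calls in place of 11, and Icosl from day 2 to day 3 (−0.28). DESeq2 also called Pdcd1lg2 from day 2 to day 3 (1.69, adjusted p = 0.00769) and from day 3 to day 4 (−1.79, adjusted p = 0.00995). With the longest transcript as length, 5 of 9 levels kept their rank. The cause of these shifts was not tested. A left-out library leaves a group with 1 library, which is assumed to vary like the others. No paired analysis was possible because the labels give no replicate numbers. Sample titles run in consecutive blocks that are not labelled as sets, and a pairing by them was not tested. Among the 9 genes, Pdcd1lg2 had the fewest counts, at 0 to 35 a library, and the limit that depth sets for the others was not tested.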
